A study of Mus musculus with 4 samples.

Results

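The 32 genes described here encode the B cell antigen receptor's signal chains, the enzymes and adaptors that act behind it, the surface proteins that B cells carry and the transcription regulators of the B lineage. They were taken by name from a fixed list, and 31 of the 32 had a locus in the deposited table of 30506 loci, of which 22483 carried a gene name. No locus carried the name of Syk, the kinase that binds the phosphorylated signal chains, and Syk was not analysed here. The table was made by the authors from poly(A) RNA of whole mammary tissue of 4 mice on a mixed 129SV::FVB/N::C57BL/6 strain background, all labelled as 2 months old. Of these, 2 mice were miR-21+/+ (wild type) and 2 were miR-21-/-, in which both copies of the miR-21 gene are deleted. The miR-21-/- allele came from an earlier study and no transgene or Cre is named for these samples, so every cell type of the gland lacks miR-21. The study sequenced this tissue to look for genes that change without miR-21.

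The table holds a single value of each gene for each genotype, in FPKM (sequenced fragments scaled to the exon length of the transcript and to the depth of the library). That value combines both mice, so the spread between mice cannot be seen, no test between genotypes was possible, and every difference below is a comparison of 2 pooled values without a replicate check. Differences are given as the log2 ratio of miR-21-/- over miR-21+/+ without a pseudocount, so that a value of −1 is a 2-fold lower level in miR-21-/- tissue. In the tissue, fewer B cells and less of these RNAs per B cell cannot be told apart. The deleted gene lies in the 3′ end of Vmp1, and the shared locus of Mir21 and Vmp1 read 42.5 FPKM in miR-21+/+ and 68.2 FPKM in miR-21-/- tissue, a value of the long host transcript that does not check the genotype labels. Keratins of the luminal epithelium (Krt8, 119 and 197 FPKM) and the fat cell gene Adipoq (1207 and 853 FPKM) were present in both pools.

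A B cell recognises antigen with a membrane immunoglobulin that has almost no cytoplasmic tail. The signal is passed on by the paired chains Cd79a and Cd79b, which Src family kinases phosphorylate and which then recruit Syk, the adaptor Blnk, Btk and phospholipase C-gamma 2. Coreceptors strengthen the signal, inhibitory receptors such as Cd22 weaken it, and Pax5 and Ebf1 hold the cells in the B lineage. In the mammary gland B cells are scattered in the stroma and gathered in the lymph node of the inguinal fat pad. Many of these genes are not restricted to B cells. From general knowledge, but with earlier results of these data known, 15 of the 31 with a locus were classed as used mainly by B cells. The other 16 were classed as used by myeloid, stromal, epithelial or other lymphoid cells as well.

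Of the 31 genes, 27 were lower in miR-21-/- than in miR-21+/+ tissue and 4 were higher, and the median log2 ratio was −1.18. The level was at least 2-fold lower for 17 of the 31 and at least 4-fold lower for 12, and it was at least 2-fold higher for 0. Among all 18173 named loci above 0 FPKM in both genotypes, 5.05% were at least 2-fold lower and 4.76% at least 2-fold higher, with a median of −0.02. With a mean of both genotypes above 1 FPKM, 16 of 30 members were at least 2-fold lower against 2.16% of the 13305 named loci, and 0 were at least 2-fold higher against 1.72%. Of those 16, 11 passed this minimum through their miR-21+/+ value alone, with 0.208 to 0.786 FPKM in miR-21-/- tissue, so that their number is a description of which genes passed. The study's own minimum of more than 5 FPKM in at least one genotype kept 15 members, 4 of them only through their miR-21+/+ value. Of these 15, 6 were at least 2-fold lower and 0 at least 2-fold higher, against 1.48% and 1.25% of the 9714 named loci above it, and the median of the 15 was −0.19 against −0.03. Most B lineage genes stood at a low level even in miR-21+/+ tissue, with a median of 4.77 FPKM there and 2.37 FPKM in miR-21-/- tissue.

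**Figure D1:**
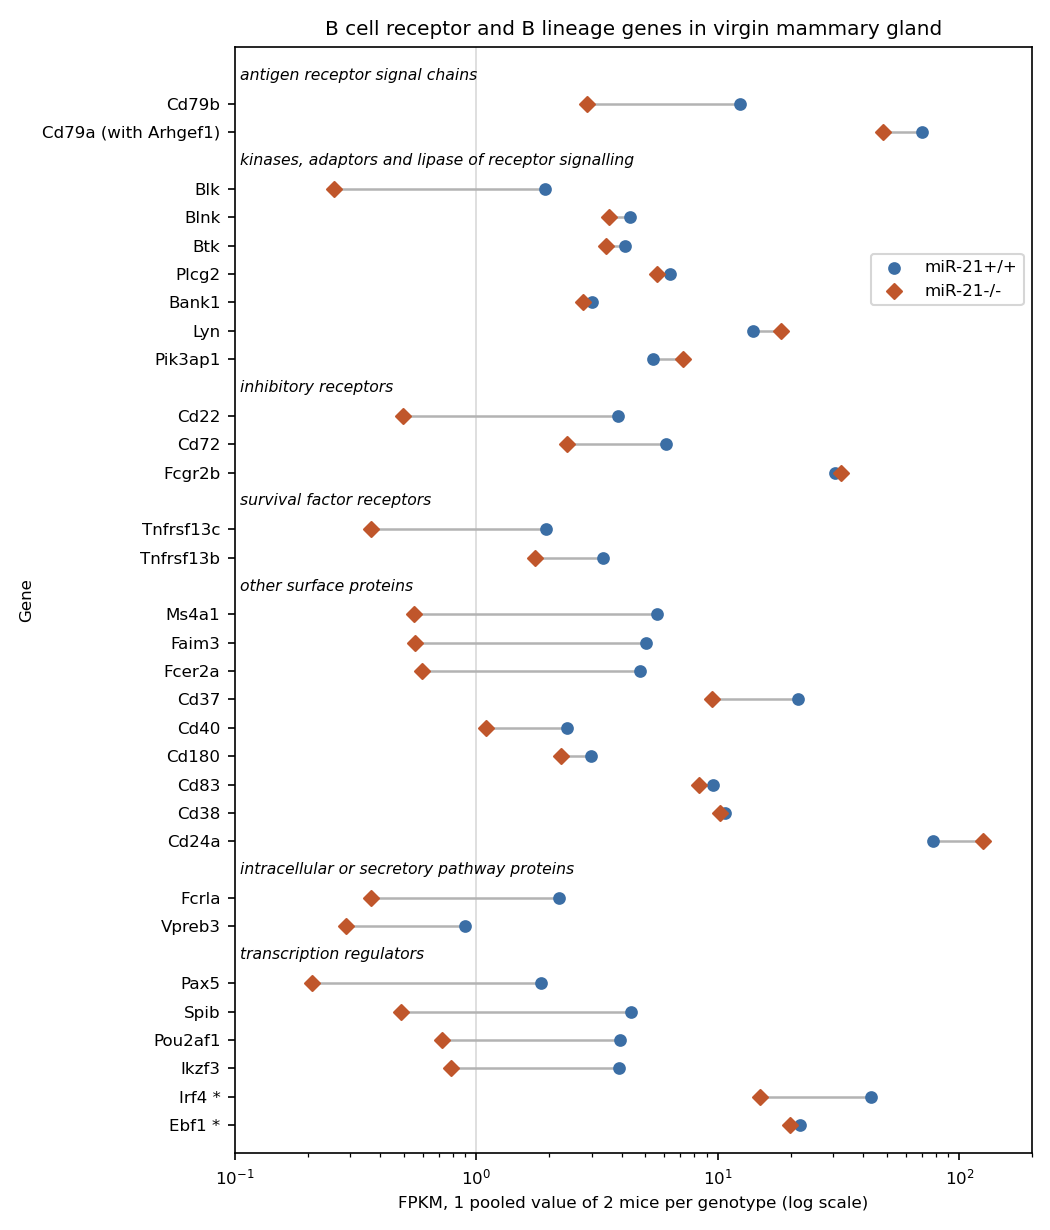
FPKM (log scale) of the 31 genes in miR-21+/+ (circles) and miR-21-/- (diamonds) mammary tissue, one pooled value of 2 mice per genotype, ordered by role and joined by a line. The asterisk marks loci whose comparison the table lists as failed. Ms4a1, Faim3, Pax5, Spib, Fcer2a, Cd22 and Blk are separated most, and Fcgr2b, Cd38 and Bank1 nearly coincide.

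Of the signal chains, Cd79b was lower in miR-21-/- tissue, and so was the locus that holds Cd79a together with another gene. Cd79b, the Ig-beta chain, lies at chr11:106172655-106175843 on the minus strand (mm9). Its level was 12.3 FPKM in miR-21+/+ and 2.88 FPKM in miR-21-/- tissue, a log2 ratio of −2.09. Its partner Cd79a, the Ig-alpha chain, cannot be read alone, since one locus, chr7:25682341-25711614, covers it together with Arhgef1, a guanine nucleotide exchange factor of many blood cells. That locus read 70.3 and 48.3 FPKM, a log2 ratio of −0.54. In FPKM the merged locus was lower by more (−22.0) than Cd79b was (−9.40), although its ratio was closer to 0. How much of either value belongs to Cd79a was not determined.

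Among the enzymes and adaptors behind the receptor, Blk stood apart from the rest. Blk, a Src family kinase of B cells, read 1.93 FPKM in miR-21+/+ and 0.258 FPKM in miR-21-/- tissue, a log2 ratio of −2.90. Lyn, the Src family kinase that B cells share with macrophages and mast cells, was higher in miR-21-/- tissue, at 14 and 18.3 FPKM with a log2 ratio of 0.39. The same direction was seen for Pik3ap1, the adaptor that ties the receptor to phosphoinositide 3-kinase, with 5.41 and 7.16 FPKM and a log2 ratio of 0.40. Both ratios are below 0 when the columns are scaled to equal sums over all loci, a scaling that shifts every log2 ratio by −0.63. Named loci summed to 380567 and 355385 FPKM, all loci to 759295 and 1175603 FPKM, so that shift comes from loci without a gene name. Scaled to equal sums over named loci, the ratios of Lyn and Pik3ap1 were 0.49 and 0.50. The remaining 4 lay close to the level of miR-21+/+ tissue. The adaptor Blnk read 4.32 and 3.55 FPKM (−0.28), Btk, the Tec family kinase, 4.14 and 3.43 FPKM (−0.27), the phospholipase Plcg2 6.31 and 5.61 FPKM (−0.17), and the scaffold protein Bank1 3.0 and 2.76 FPKM (−0.12). Blnk and Bank1 had been classed as used mainly by B cells, and both differed from Blk in this respect by over 2 log2 units. Over the 7 genes of this role the median was −0.17, and 1 was at least 2-fold lower.

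The inhibitory receptors gave different values from each other. Cd22, a sialic acid binding receptor of mature B cells (chr7:31647568-31665361), was at 3.84 FPKM in miR-21+/+ and 0.495 FPKM in miR-21-/- tissue, a log2 ratio of −2.96. Cd72, a C-type lectin that recruits the phosphatase Ptpn6, read 6.10 and 2.37 FPKM with a log2 ratio of −1.36. Its locus overlaps Tesk1 on the opposite strand, and since the library kit does not mark strand the reads of the overlap cannot be assigned. Tesk1 itself read 8.60 and 9.09 FPKM, so it did not share the lower value of Cd72. Fcgr2b, the inhibitory receptor for IgG that macrophages also carry in quantity, was nearly level, at 30.5 and 32.4 FPKM (0.09). That ratio is also below 0 with the columns scaled to equal sums over all loci.

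The receptors for the survival factors BAFF and APRIL were both lower. Tnfrsf13c, the BAFF receptor on which mature B cells depend, read 1.94 FPKM in miR-21+/+ and 0.367 FPKM in miR-21-/- tissue, a log2 ratio of −2.40. Tnfrsf13b, known as TACI, read 3.34 and 1.75 FPKM, a log2 ratio of −0.93, which is under 2-fold. The genes of the ligands were closer to equal. Tnfsf13b, which encodes BAFF, read 2.46 and 2.03 FPKM (−0.28), and Tnfsf13, which encodes APRIL and shares its locus with Tnfsf12 and BC096441, read 22.3 and 25.8 FPKM (0.21).

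The other surface proteins covered the whole range. The largest difference of all 31 genes was that of Ms4a1, the CD20 antigen of mature B cells, at chr19:11324336-11340643 on the minus strand. It read 5.61 FPKM in miR-21+/+ and 0.549 FPKM in miR-21-/- tissue, a log2 ratio of −3.36, or 9.77% of the miR-21+/+ level. Faim3, the Fc receptor for IgM that RefSeq names Fcmr, read 5.06 and 0.558 FPKM (−3.18), and Fcer2a, the low affinity IgE receptor CD23, read 4.77 and 0.597 FPKM (−3.0). These 3 genes mark mature naive B cells, and all were at or below 12.5% of their miR-21+/+ level. Cd37, a tetraspanin of B cells that other leukocytes also carry, read 21.5 and 9.48 FPKM (−1.18). Its locus extends over Tead2 on the opposite strand, which has its own locus at 17.6 and 20.8 FPKM. Cd40, the receptor for T cell help that dendritic cells share, read 2.37 and 1.10 FPKM (−1.10).

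The other 4 surface proteins, all of wider use, were less than 2-fold apart. Cd180, which pairs with Ly86 in lipopolysaccharide responses, read 2.99 and 2.23 FPKM (−0.42). The activation marker Cd83 read 9.54 and 8.37 FPKM (−0.19), and the NAD-consuming ectoenzyme Cd38 read 10.7 and 10.2 FPKM (−0.07), a ratio that is above 0 when the columns are scaled to equal sums over named loci. Cd24a, a glycoprotein of immature B cells that mammary epithelium carries abundantly, had the highest level of the 31 loci and was higher in miR-21-/- tissue, at 77.9 and 125 FPKM with a log2 ratio of 0.68. The luminal epithelial list was also higher in that tissue for 8 of its 10 genes, with summed levels of 695 and 934 FPKM. Scaled to equal sums over all loci, 3 of these 10 genes were higher and the log2 ratio of Cd24a was 0.05. The part of the epithelium in the value of Cd24a was not tested.

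Of the 6 transcription regulators, 5 were at least 2-fold lower in miR-21-/- tissue and the median was −2.38. Over all 18173 named loci above 0 FPKM in both genotypes, the share at least 2-fold lower was 5.05%. In miR-21-/- tissue 4 of the 6 regulators read at most 1 FPKM. Pax5, which fixes the commitment to the B lineage, read 1.85 FPKM in miR-21+/+ and 0.208 FPKM in miR-21-/- tissue, a log2 ratio of −3.16, and Spib, an Ets family factor, read 4.35 and 0.485 FPKM with the same log2 ratio of −3.16. Pou2af1, the coactivator of octamer binding factors, read 3.93 and 0.721 FPKM (−2.45). Ikzf3, the Ikaros family factor Aiolos, read 3.91 and 0.786 FPKM (−2.32). Irf4, a factor of activated B cells and plasma cells that T cells, myeloid cells and adipocytes also use, read 43.2 and 15 FPKM (−1.53). Ebf1, which fat cells and their precursors also use, read 21.8 and 19.9 FPKM (−0.13). For Irf4 and Ebf1 the table lists the comparison as failed, which leaves the reliability of these 2 pairs of FPKM values unknown. Without them 16 of 29 genes were at least 2-fold lower.

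A pair of genes encode intracellular proteins. Fcrla, an Fc receptor-like protein kept inside B cells, read 2.20 FPKM in miR-21+/+ and 0.365 FPKM in miR-21-/- tissue, a log2 ratio of −2.59. Vpreb3, which associates with new immunoglobulin chains in the endoplasmic reticulum, read 0.893 and 0.287 FPKM (−1.64) and was the member with the lowest level in miR-21+/+ tissue.

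Set against miR-21+/+ tissue, the remaining level in miR-21-/- tissue ranged from 9.77% to 160%. The groups below were cut from the sorted values, so the width of each range follows from the cut. Ms4a1, Faim3, Pax5, Spib, Fcer2a, Cd22 and Blk, 7 genes in all, lay between 9.77% and 13.4% of the miR-21+/+ level. In miR-21-/- tissue these 7 read only 0.208 to 0.597 FPKM. Another 5, Fcrla, Pou2af1, Tnfrsf13c, Ikzf3 and Cd79b, lay between 16.6% and 23.4%. Vpreb3, Irf4, Cd72, Cd37 and Cd40 lay between 32.1% and 46.6%, and 3 genes (Tnfrsf13b, the Cd79a locus and Cd180) between 52.5% and 74.6%. The other 11 ranged from 82.3% for Blnk to 160% for Cd24a. With unequal ratios, the proportions between the members necessarily differed between the pools, as a single pair shows. The level of Cd79b was 2.19 times that of Ms4a1 in miR-21+/+ and 5.25 times in miR-21-/- tissue. Ms4a1 is the member with the lowest ratio, so the larger multiple in miR-21-/- tissue follows from the choice of this pair. Its level there was 0.549 FPKM.

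The genes used mainly by B cells had the lower ratios of the 2 classes. Since the classes were drawn up with earlier results of these data known, this describes the split and is no independent check. All 15, counting the merged Cd79a locus, were lower in miR-21-/- tissue, 11 of them at least 2-fold. Their median log2 ratio was −2.45. In miR-21-/- tissue 10 of these 15 read at most 1 FPKM, all of them among the 11. Of the 18173 named loci above 0 FPKM in both genotypes, 5.05% were at least 2-fold lower. Among the 16 with wider use, 12 were lower, 6 of them at least 2-fold, and the median was −0.23. Leaving out the merged Cd79a locus, the genes used mainly by B cells had a summed level of 55.0 FPKM in wild type and 15.3 FPKM in miR-21-/- tissue. Those of the wider class summed to 265 and 262 FPKM. Cd24a, which was higher in miR-21-/- tissue, made up 77.9 and 125 FPKM of these, so the near-equal sums do not describe most genes of the class. In the ranking of 13305 named loci with a mean above 1 FPKM from the lowest to the highest log2 ratio, 12 of the 30 members that passed were among the lowest 100 loci, and Ms4a1 stood at place 9. Of these 12, 11 (all but Cd79b) were above 1 FPKM in the miR-21+/+ pool alone, which placed them in the ranking through the pool in which they are high. Across the 31 genes the levels of both pools kept a similar order (Spearman's rho 0.86), and lower levels in miR-21+/+ tissue went with lower ratios (rho 0.46). All points share the same pair of pools, and these coefficients only describe them.

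**Figure D2:**
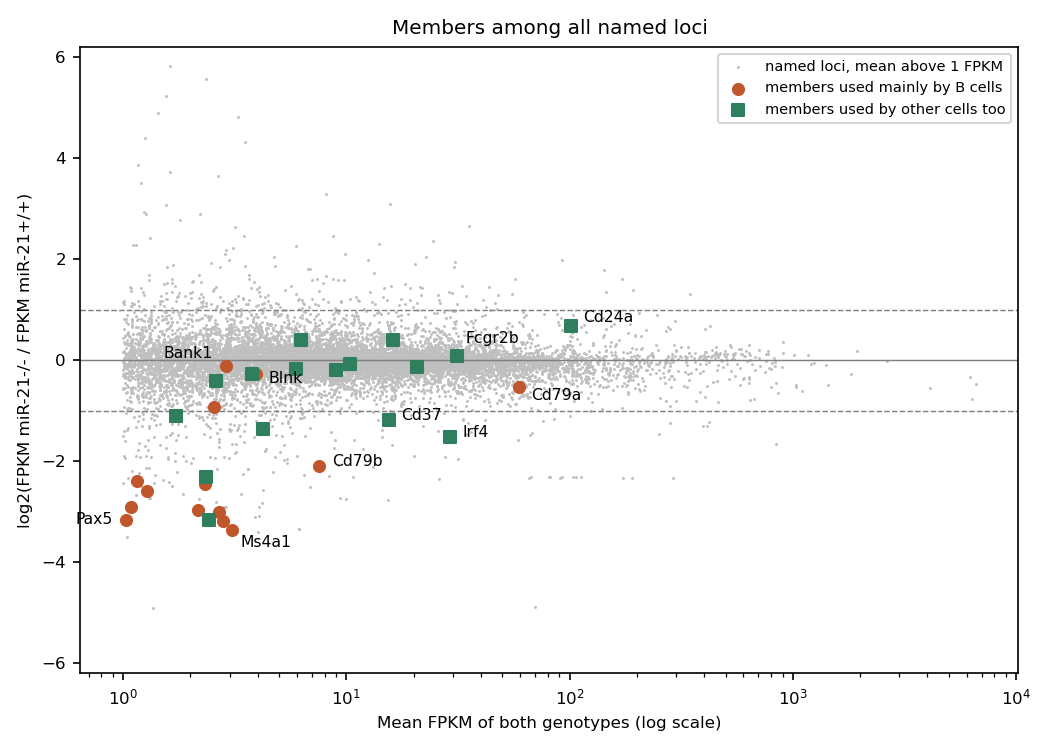
Log2 ratio (miR-21-/- over miR-21+/+) against the mean FPKM of both genotypes (log scale) for the 13305 named loci with a mean above 1 FPKM in grey, with members used mainly by B cells as circles and those used by other cells too as squares. Dashed lines mark 2-fold. The circles gather between −3.36 (Ms4a1) and −2.09 (Cd79b) at low levels, apart from Tnfrsf13b, Blnk, Bank1 and the merged Cd79a locus.

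The members lie on 15 chromosomes, and close neighbours among them had unequal ratios. Fcrla and Fcgr2b are neighbours on chromosome 1 with 32.1 kb between their loci, and their log2 ratios were −2.59 and 0.09. On chromosome 19 Blnk and Pik3ap1 are 277 kb apart, with −0.28 and 0.40. On chromosome 7 Spib and Cd37 are 684 kb apart, with −3.16 and −1.18.

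Since miR-21 represses its targets through matches to its seed in 3′ UTRs, the longest annotated 3′ UTR of each member was searched for the seed's complement. The mature miR-21 of the mouse is shown with its seed, bases 2 to 8, in capitals. The site of Ms4a1 is shown with 10 bases on either side and the 8 matching bases in capitals, as the sense strand of the transcript in DNA letters.
mmu-miR-21a-5p: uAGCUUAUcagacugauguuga
Ms4a1 site: atatgcctgtATAAGCTAtatcaaagta
A full match to the seed (ATAAGCT) was found in 1 of 31 members (3.23%), against 6.96% of 12835 genes with a mean above 1 FPKM and an annotated 3′ UTR. That member was Ms4a1, whose site with the additional A lies at chr19:11325185-11325192 on the minus strand of mm9, at position 1140 of a 3′ UTR of 1678 nt. Ms4a1 also had the lowest log2 ratio of the 31 genes. A single match below the share of all genes carries no conclusion, and whether miR-21 acts on this site was not tested. Ebf1 held the weaker form of the match that lacks pairing to base 8 (TAAGCTA), and the other 29 held no match of these kinds.

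Promoter windows, from 250 bases before to 50 bases after the annotated start, were on hand for 24 members from RefSeq (GRCm38.p6). They were searched on both strands for 3 motifs of factors that are themselves in or near the list. The octamer ATGCAAAT, through which Pou2af1 acts, was found in 2 of 24 (8.33%) against 1.97% of all 27025 genes with a window. The Ets motif GAGGAAGT bound by Spib and its relative Spi1 was found in 2 (8.33%) against 3.69%, and the Ebf1 type motif TCCCNNGGG in 1 (4.17%) against 7.48%. The matching stretches are shown 5′ to 3′ on the strand of the gene, with 30 flanking bases on either side and the match in capitals, to show where the letters lie in each of the 5 genes that hold a motif. Of these genes 4 were at least 2-fold lower in miR-21-/- tissue, beside 17 of all 31 members, and Blnk was not. In Cd22 the motif overlaps itself on both strands.
Vpreb3, octamer: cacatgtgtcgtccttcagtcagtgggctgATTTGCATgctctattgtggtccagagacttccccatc
Blnk, octamer: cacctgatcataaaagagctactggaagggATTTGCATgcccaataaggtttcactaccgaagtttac
Cd72, Ets motif: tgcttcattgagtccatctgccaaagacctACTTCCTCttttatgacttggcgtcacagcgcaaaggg
Cd37, Ets motif: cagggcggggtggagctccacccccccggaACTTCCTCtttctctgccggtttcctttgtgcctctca
Cd22, Ebf1 type motif: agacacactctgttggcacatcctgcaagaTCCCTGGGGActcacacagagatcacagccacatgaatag
These stretches lie at chr10:75948225-75948292 on the plus strand for Vpreb3, and on the minus strand at chr19:40994314-40994381 for Blnk, chr4:43454638-43454705 for Cd72, chr7:45238827-45238894 for Cd37 and chr7:30879038-30879107 for Cd22. The same octamer thus stood before Vpreb3 (log2 ratio −1.64) and before Blnk (−0.28). A match is a run of letters and was not tested as a binding site.

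Other genes of the B lineage, outside the 32, were mostly lower too. Of 24 such genes, 21 were lower in miR-21-/- tissue and 11 at least 2-fold. Among the 18173 named loci above 0 FPKM in both genotypes, 5.05% were at least 2-fold lower. The median was −0.81 over the 23 with a ratio, and Tcl1 was listed at 0 in both genotypes. In miR-21-/- tissue 12 of the 24 read at most 1 FPKM, and 3 of the 24 also did in miR-21+/+ tissue, so several of these ratios rest on values near 0. Cr2, a complement receptor of mature B cells, read 1.91 FPKM in miR-21+/+ and 0.170 FPKM in miR-21-/- tissue (−3.50), a ratio near that of Ms4a1. The most abundant of the 24 were Cd55 (30.4 and 26.9 FPKM), Ly86 (18.9 and 12.9 FPKM) and Bcl6 (15 and 16.7 FPKM), which other cells also use, and none of these was 2-fold lower. Of 25 further signalling genes behind the receptor, 20 were lower and 3 at least 2-fold, among them Stap1 and the leukocyte phosphatase Ptprc (21.6 and 10.5 FPKM), with a median of −0.24. In this group Stap1 was lowest at −1.95, Pik3r1 highest at 0.50, and Cd81, which shares a locus with Tssc4, the most abundant at 225 and 221 FPKM (−0.03). For Pik3r1 and some others in both groups the comparison is listed as failed, which leaves the reliability of their values unknown. The median of the signalling group is the value of such a locus.

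Genes of earlier and later B cell stages were mostly at low levels. The 6 progenitor genes together reached 0.450 FPKM in wild type and 0.425 FPKM in miR-21-/- tissue, and Rag2 was listed at 0 in the former. Of the 8 plasma cell genes with a locus, 6 were lower and 1 at least 2-fold, with a median of −0.44. The joining chain Igj read 2.14 and 1.14 FPKM (−0.91), and 2010001M09Rik, the older name of Mzb1, read 1.17 and 0.253 FPKM (−2.21). Xbp1 and Sdc1, which secretory epithelium also uses, were far higher, at 84.0 and 117 FPKM and at 57.6 and 30.8 FPKM. None of the 12 immunoglobulin constant region names had a locus, so antibody transcripts were not analysed here.

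Markers of T cells, and most of those of lymph node tissue, were also lower in miR-21-/- tissue. All 21 T cell genes were lower in miR-21-/- tissue, 20 of them at least 2-fold, with a median of −2.09, and none was at 0. Their summed level was 154 FPKM in miR-21+/+ and 78.2 FPKM in miR-21-/- tissue, of which Thy1, which stromal cells also carry, made up 55.7 and 53.6 FPKM. Cd3e read 7.26 and 1.22 FPKM (−2.57). Of 10 lymph node vessel and stroma genes with a locus, 7 of the 9 with a ratio were lower and 5 at least 2-fold, with summed levels of 187 and 41.3 FPKM. Glycam1, the sugar-bearing ligand that high endothelial venules and mammary epithelium make, read 136 and 4.63 FPKM (−4.88) and made up most of the wild type sum. Ltbr, the next most abundant of the list, was not lower, at 24.0 and 26.8 FPKM (0.15). Cxcl13, the chemokine that draws B cells into follicles, read 9.47 and 2.53 FPKM (−1.90). The chemokines Ccl19 and Ccl21c, each with 2 loci in the table, read 5.92 and 1.33 FPKM (−2.16) and 5.02 and 0.667 FPKM (−2.91). Chst4, a sulfotransferase of these venules, was listed at 0.571 and 0 FPKM, while Madcam1 was higher, at 0.576 and 1.56 FPKM (1.44). The labels and methods used here do not say which gland was taken or whether its lymph node was removed, and the part of lymph node tissue in the lower B lineage values was not tested.

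Macrophage and mast cell genes were nearer to level. Of 14 macrophage genes 8 were lower and 0 at least 2-fold, with a median of −0.03 and summed levels of 1304 and 1252 FPKM. The 6 mast cell genes had a median of 0.21, or −0.42 scaled to equal sums over all loci, and summed to 129 and 161 FPKM, and the 8 dendritic cell genes a median of −0.46 and sums of 27.5 and 25.7 FPKM. The 7 genes of NK and cytotoxic cells, all below 4 FPKM, had a median of −0.85 with 3 at least 2-fold lower and 1 at least 2-fold higher. No test of the difference between any of these lists and the B lineage genes could be made with a single value per genotype.

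**Figure D3:**
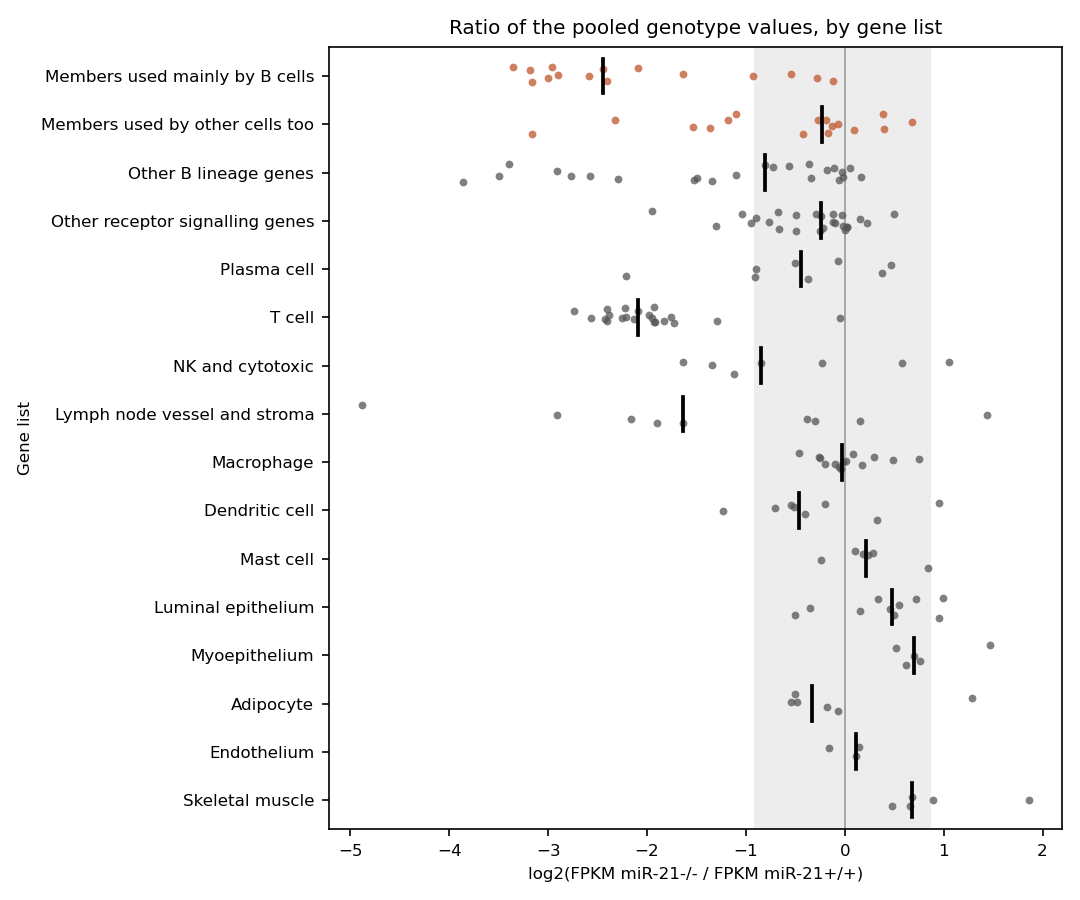
Log2 ratio (miR-21-/- over miR-21+/+) of each gene with a value above 0 in both genotypes, by list, with the members in orange and a black bar at each list's median. The grey band holds the middle 95% of the 13305 named loci with a mean above 1 FPKM (−0.91 to 0.86). Some of the genes shown have a lower mean, and the band was not computed for such loci. Members used mainly by B cells (median −2.45) and T cell genes (−2.09) lie mostly left of the band, and macrophage genes (−0.03) inside it.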

How the data were processed

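Poly(A) RNA of mammary tissue was sequenced as single-end reads. The authors used TopHat for alignment to the mm9 assembly (the submitters' processing notes also name CASAVA), estimated FPKM with Cufflinks and deposited a table in Cuffdiff's format with one FPKM value per genotype over its 2 mice. Program versions, the annotation and normalization options were not given in the sources used here. The authors' own fold changes, test statistics, p-values and q-values were not used. The files used here hold FPKM without counts, and whole reads could not be recovered from them, so depth is unknown and no interval was computed.

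For each name the locus with the highest mean FPKM was taken (no member had more than 1 locus), and log2(miR-21-/- FPKM / miR-21+/+ FPKM) was computed without a pseudocount, leaving out loci at 0 in either genotype. Counts used a 2-fold limit over all loci, over a mean above 1 FPKM, and over the study's minimum of 5 FPKM in at least one genotype. The planned design had no test, since no value per mouse was to hand. The members, 18 companion lists, their classes and the motifs were chosen with earlier results of these data known. The rule for named genes covered the members, the 3 most abundant genes of each companion list, its highest and lowest ratio above 1 FPKM, the locus of Mir21 and a few markers. Other names (Ccl19, Ccl21c, Chst4, Ptprc, Igj, 2010001M09Rik, Tcl1, Rag2, Krt8 and loci that overlap members) were chosen after their values were seen, and some genes of the companion lists are not reported here by name. Locus starts count from 0 in the table (8295 starts matched the GENCODE vM1 annotation of mm9 after adding 1, 477 as printed) and are given from 1. UTR sequences came from GENCODE vM1, and miR-21 and promoter sequences from RefSeq GRCm38.p6. The arithmetic of the ratios was checked on planted ratios without noise, which says nothing about the reliability of the FPKM values. Python 3.11.15, numpy 2.4.6, pandas 2.3.3 and matplotlib 3.10.9 were used.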

Additional observations from a re-analysis of the deposited data

How the results depend on the processing

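No paired analysis was possible because both mice of a genotype share 1 pooled FPKM value, which also prevents leaving out each mouse in turn. All 31 members had a single locus, so summing loci changed nothing. The median log2 ratio of the members, −1.18, was −1.81 with both columns scaled to equal sums over all loci, a scaling that shifts every ratio by −0.63, and −0.13 and −0.19 over the members above 5 FPKM in both or in at least one genotype, minimums that remove most genes used mainly by B cells. A pseudocount of 1 FPKM gave −0.68 and changed 12 of the 31 ratios by at least 1.5-fold. The median of the genes used mainly by B cells was then −1.23, where it was −2.45 without a pseudocount. Ms4a1 was at −2.09, Cd79b at −1.78, Pax5 at −1.24 and Blk at −1.22, so the order of these ratios also depended on this setting. The count of members at least 2-fold lower under the 5 FPKM minimum, 6, was 17 without a minimum, 16 above 1 FPKM in at least one genotype or on average, 2 above 5 FPKM in both genotypes and 3 at a 3-fold limit, and 1 member, Cd24a, was at least 1.5-fold higher. The count of 17 over all members lay between 13 and 20 under the pseudocounts, scalings and fold limits, and was 15 of 28 without the 3 loci that overlap another gene, alternatives chosen after seeing the data. With a pseudocount of 1 FPKM, 15 of 31 members and 0.974% of the named loci were at least 2-fold lower, and with equal sums over all loci 20 and 16.9%. Scaled to equal sums over all loci, 30 members were lower and 1, Cd24a, higher, and over named loci 26 and 5.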

Other observations

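Lists of cell types outside the immune system, some of which use members such as Ebf1, Irf4 or Cd24a, gave values in both directions. All 5 myoepithelial genes were higher in miR-21-/- tissue, with a median log2 ratio of 0.70 and summed levels of 298 FPKM in wild type and 481 FPKM in miR-21-/- tissue, and Oxtr, the oxytocin receptor, read 17.5 and 48.7 FPKM (1.47). All 5 skeletal muscle genes were higher too, with a median of 0.68 and sums of 882 and 1421 FPKM. Of 6 adipocyte genes 5 were lower, none of them 2-fold, with sums of 10643 and 7817 FPKM, while Lep, which encodes leptin, read 27.7 and 67.9 FPKM (1.29). The 3 endothelial genes had a median of 0.11 (104 and 110 FPKM), and the 4 lymphatic vessel genes a median of 0.28 (29.9 and 55.6 FPKM), where Lyve1, which some macrophages also carry, read 19.6 and 42.7 FPKM (1.12). Scaled to equal sums over all loci, the medians of the endothelial and lymphatic lists are below 0 and those of the myoepithelial and muscle lists stay above it. None of these differences could be tested, and their part in the values of the B lineage genes was not tested.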
